A study of Homo sapiens with 6 samples.

Results

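Sterol synthesis and fatty acid synthesis were followed in prostate cancer cells in which PCAT1, a long non-coding RNA, was targeted by an shRNA, through the enzymes that build cholesterol, those that build and modify fatty acids, and the proteins that control both. The members are 35 genes named by their place in the pathway, 19 of sterol synthesis, 5 of its control and sterol transport, and 11 of fatty acid synthesis. They were found in the deposited table by gene name. All 35 were listed, out of 11848 gene names, and they hold 123 of the 29091 listed transcripts. Each of the 35 had a mean of at least 1 FPKM (fragments scaled by transcript length and by library size) and entered the test.

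The cells were LNCaP-AI, an androgen-independent line that was derived from the human prostate cancer line LNCaP by keeping it for a long time without androgen, in charcoal-stripped serum. RNA-seq was done on 3 samples given an shRNA against PCAT1 (shPCAT1) and on 3 samples given a scramble shRNA (shSCR). Both groups therefore share the line and an shRNA. The study's RNA-seq methods do not state the serum in which these samples were grown. The labels do not say whether the replicates were separate cultures, so the p-values below reflect how far these samples scattered, and that scatter may be technical only. PCAT1 itself was not analysed here and the depth of the libraries is unknown.

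Cholesterol and fatty acids start from the same unit, acetyl-CoA. In the sterol arm it is condensed and reduced to mevalonate, then to isoprenoid units that are joined to squalene, closed into a ring and trimmed to cholesterol. In the fatty acid arm it is carboxylated and chained into palmitate, which desaturases and elongases modify. The transcription factors SREBP-1 and SREBP-2, encoded by SREBF1 and SREBF2, are released from the membrane when sterols are low and act on genes of both arms, SREBP-1c mainly on fatty acid genes and SREBP-2 mainly on sterol genes; in the prostate, androgen is known to raise lipid synthesis through this system.

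The library of shSCR replicate 3 stood apart. Its correlation with the other libraries over all genes was 0.809 to 0.845, against 0.910 to 0.946 among the other 5, and its difference from shSCR replicates 1 and 2 followed GC content (rank correlation rho 0.582 over genes, which are not independent). Gene values below are from all 6 samples unless it is named as left out, and the value without it is given where a call changed, the direction turned or the log2 change moved by over 1.5 times. All 9 markers of luminal prostate cells were listed, summing to 1085 to 1259 FPKM in shPCAT1 samples and 1357 to 1907 FPKM in shSCR samples. Of 14 markers of other cells 6 were listed, with sums of 20.8 to 27.7 FPKM in shPCAT1 samples and 29.9 to 43.9 FPKM in shSCR samples, most of it ENO2. The other 8, among them TP63, DCN, CHGA and PTPRC, were not analysed here. The part that these differences have in the results was not tested. In bulk RNA, fewer cells of a type and less RNA per cell cannot be told apart.

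The upstream sequences of 4 members are shown, those of HMGCS1 and SC5D because these were the sterol genes with the smallest p-values, and those of SREBF1 and SREBF2 because they encode the regulators. They are the 250 bases before the gene start in RefSeq (GRCh38.p14), 5′ to 3′ on the strand of the gene. Capitals mark TCACNCCA, a core form of the sterol regulatory element that SREBPs bind, and CCAAT, the motif of NF-Y, a factor that works beside them; CCAAT on the other strand reads ATTGG.
HMGCS1 (chr5:43313413-43313662, minus strand): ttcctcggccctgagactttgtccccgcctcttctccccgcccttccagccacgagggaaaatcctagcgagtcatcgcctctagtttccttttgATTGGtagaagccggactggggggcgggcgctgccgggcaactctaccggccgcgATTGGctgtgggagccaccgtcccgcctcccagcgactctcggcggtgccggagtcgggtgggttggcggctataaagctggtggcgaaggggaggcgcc
SC5D (chr11:121292521-121292770, plus strand): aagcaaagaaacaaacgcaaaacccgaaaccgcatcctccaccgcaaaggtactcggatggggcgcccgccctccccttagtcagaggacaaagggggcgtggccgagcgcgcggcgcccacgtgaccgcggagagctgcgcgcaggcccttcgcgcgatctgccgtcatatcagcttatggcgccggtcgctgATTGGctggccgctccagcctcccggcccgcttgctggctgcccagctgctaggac
SREBF1 (chr17:17836987-17837236, minus strand): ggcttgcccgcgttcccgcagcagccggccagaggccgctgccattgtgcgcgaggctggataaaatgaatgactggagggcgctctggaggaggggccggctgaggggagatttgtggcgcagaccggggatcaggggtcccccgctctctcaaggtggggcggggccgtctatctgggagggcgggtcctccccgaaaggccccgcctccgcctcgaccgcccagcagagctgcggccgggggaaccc
SREBF2 (chr22:41832855-41833104, plus strand): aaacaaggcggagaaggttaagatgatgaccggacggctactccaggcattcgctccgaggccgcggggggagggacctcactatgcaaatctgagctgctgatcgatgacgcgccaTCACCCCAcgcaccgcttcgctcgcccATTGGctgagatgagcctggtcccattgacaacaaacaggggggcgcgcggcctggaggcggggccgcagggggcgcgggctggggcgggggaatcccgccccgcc
HMGCS1 held CCAAT at 2 places, SC5D at 1 and SREBF1 at none in this window. SREBF2 held TCACNCCA, starting at position -133 from the gene start, and CCAAT at position -106.

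Over all members, a window of 250 bases before and 50 bases from the gene start on was searched on both strands. The RefSeq table matched 31 of the 35 members; ACAT2, FDFT1, SQLE and FASN were not matched. TCACNCCA was found in 3 of 31, MVK, MSMO1 and SREBF2, and in 3.93% of all 27305 promoters. The longer form TCACNCCAC, which contains it, was found in 1 member, SREBF2, and in 1.15% of all promoters. CCAAT was found in 12 of 16 sterol genes, in 3 of 5 regulators and in 5 of 10 fatty acid genes, against 35.7% of all promoters. GGGCGG, the GC box of Sp1, was in 28 of 31 members and in 44.6% of all promoters. These are matches of letters and say nothing of binding.

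**Figure D1:**
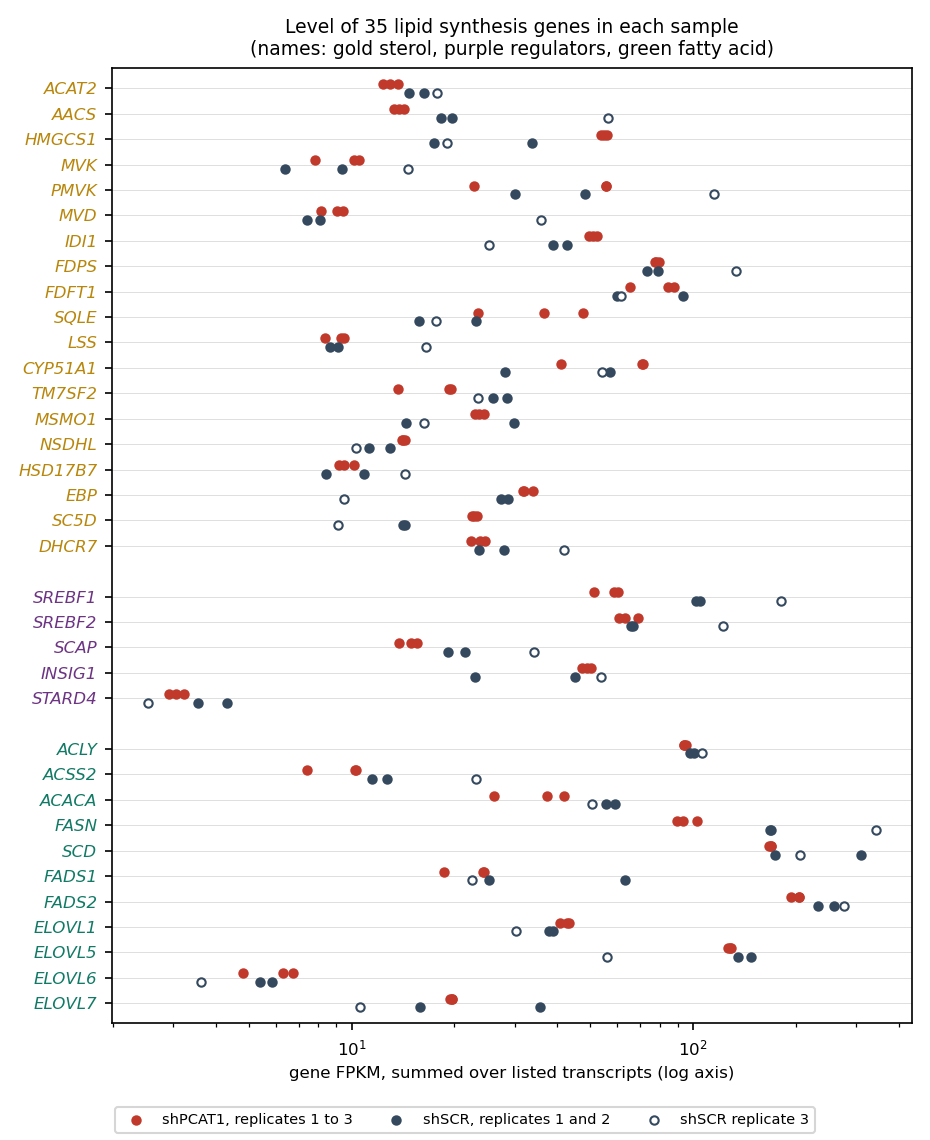
Level of the 35 genes in each sample, as gene FPKM on a log axis, with the genes in pathway order and 1 point per sample (red, shPCAT1; filled blue, shSCR replicates 1 and 2; open, shSCR replicate 3). FADS2 and SCD are the highest in shPCAT1 samples and STARD4 the lowest, and the shPCAT1 points of a gene mostly lie closer together than its shSCR points.

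The test was limma on log2(FPKM + 1), shPCAT1 against shSCR, with Benjamini-Hochberg adjustment over 10825 genes and an adjusted p of at most 0.05 as the threshold of a call. A log2 change below is a difference on that scale. Of the 35 members, 0 were called higher and 0 lower, with a background of 0.333% of all genes called higher and 0.545% called lower. By unadjusted p (at most 0.05), 4 members were higher and 6 lower, where 7.23% of all genes were higher and 10% lower by the same measure, and limma without trend or robust fit also called 0. With shSCR replicate 3 left out, 1 member was called higher (SC5D) and 3 lower (AACS, SREBF1 and FASN), where 3.65% of all genes were called higher and 4.29% lower. The log2 change was above 0 for 14 members and below 0 for 21, beside 45.8% and 54.2% of all genes. Its median was -0.03 over the sterol genes, -0.34 over the regulators and -0.35 over the fatty acid genes, beside -0.05 over all genes tested. Without shSCR replicate 3 these medians were 0.18, -0.27 and -0.29, beside -0.01.

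**Figure D2:**
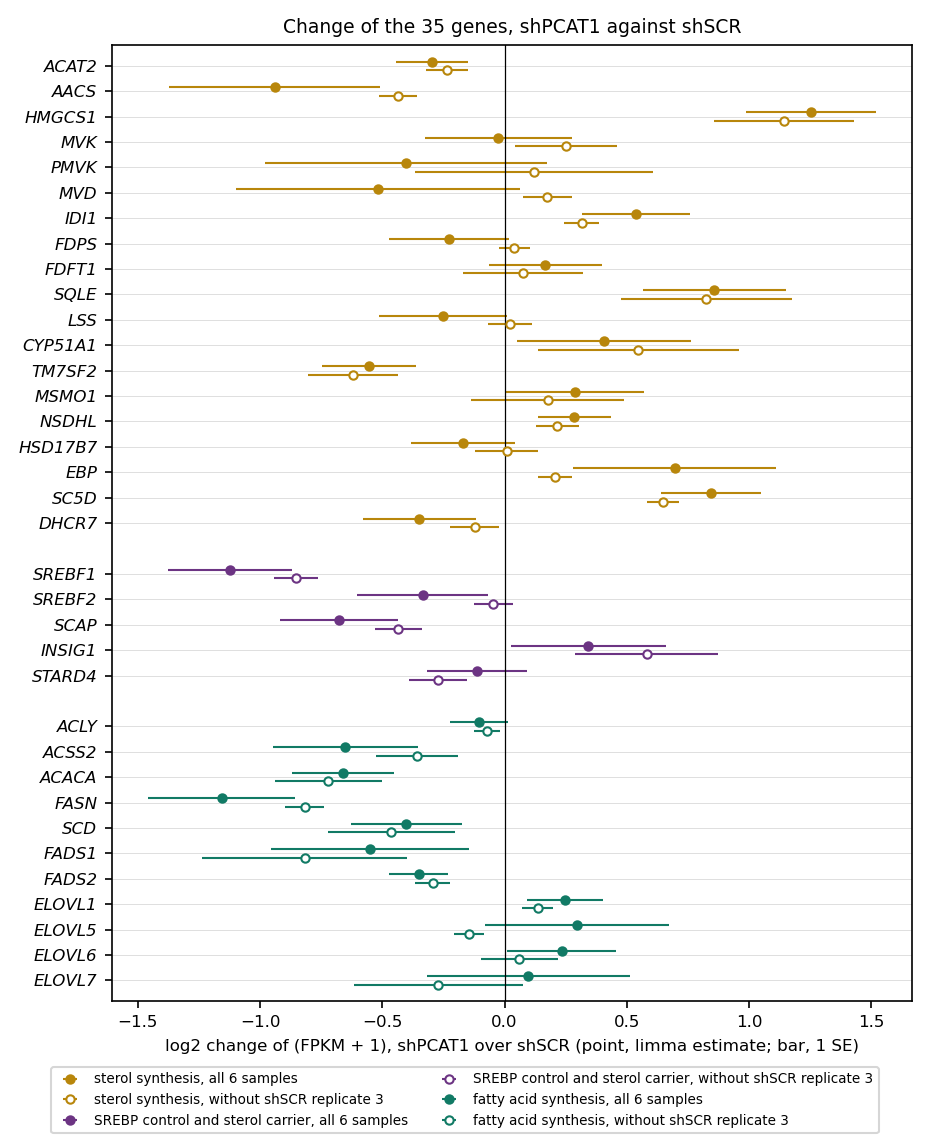
Log2 change of (FPKM + 1), shPCAT1 over shSCR, of each member in pathway order, as the limma estimate with 1 SE, for all 6 samples (filled) and without shSCR replicate 3 (open). HMGCS1, at 1.25, lies furthest to the right and FASN, at -1.16, furthest to the left with all samples; most bars shorten when the 1 library is left out.

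The groups of a gene were also compared by their ranges. The 3 shPCAT1 samples all lay above the 3 shSCR samples for 7 members and all below for 11, while 14.8% of all genes were higher and 17.7% lower without overlap. The 7 were 6 sterol genes (HMGCS1, IDI1, SQLE, NSDHL, EBP and SC5D) and ELOVL1. The 11 were the sterol genes ACAT2, AACS and TM7SF2, the regulators SREBF1 and SCAP, and the fatty acid genes ACLY, ACSS2, ACACA, FASN, SCD and FADS2. Without shSCR replicate 3 the counts were 9 higher and 14 lower, against 23.1% and 25.6% of all genes.

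The shPCAT1 samples were closer to each other than the shSCR samples. The coefficient of variation was smaller in shPCAT1 for 32 of the 35 members, with a median of 4.99% in shPCAT1 and 34.2% in shSCR. Over all genes tested it was smaller in shPCAT1 for 8370 of 10825, with medians of 10.7% in shPCAT1 and 29.8% in shSCR. The shSCR values include replicate 3, and the coefficient was not computed without it. For FASN, shSCR replicates 1 and 2 were close (168.9 and 167.7 FPKM) and replicate 3 was apart (342.2 FPKM). For SCD, shSCR replicates 1 and 2 already differed (174.2 and 310.9 FPKM).

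The entry of the sterol arm is served by ACAT2, which condenses acetyl-CoA to acetoacetyl-CoA, and AACS, which makes acetoacetyl-CoA from the ketone body acetoacetate. ACAT2 had 13.0, 13.7 and 12.4 FPKM in shPCAT1 samples, against 14.7, 16.3 and 17.8 FPKM in shSCR samples. AACS had 13.4, 13.8 and 14.2 FPKM in shPCAT1 samples, against 19.7, 18.2 and 56.3 FPKM in shSCR samples. Both genes lay below all shSCR samples, and shSCR replicate 3 was far above the other 2 for AACS. The log2 change of AACS was -0.94 ± 0.43 (SE, adjusted p = 0.329) with all samples and -0.43 ± 0.08 (adjusted p = 0.0450) without that library.

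HMGCS1 encodes HMG-CoA synthase, which joins acetoacetyl-CoA and acetyl-CoA ahead of mevalonate. It had 56.1, 54.9 and 53.7 FPKM in shPCAT1 samples, against 17.4, 33.8 and 19.04 FPKM in shSCR samples. The lowest shPCAT1 sample was well above the highest shSCR sample, replicate 2. The mean was 2.34-fold that of shSCR, with a log2 change of 1.25 (95% interval 0.61 to 1.90, adjusted p = 0.108), and 2.14-fold without shSCR replicate 3 (log2 change 1.14, adjusted p = 0.0898). It was the largest increase among the 35 members in both fits, and it did not reach the threshold in either.

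MVK and PMVK, the kinases that phosphorylate mevalonate in turn, and MVD, which decarboxylates the product to isopentenyl diphosphate, did not separate the groups. MVK had 10.2, 10.5 and 7.82 FPKM in shPCAT1 samples, against 6.37, 9.39 and 14.6 FPKM in shSCR samples. PMVK had 55.6, 22.9 and 55.6 FPKM in shPCAT1 samples, against 30.0, 48.1 and 115.1 FPKM in shSCR samples. MVD had 9.08, 9.41 and 8.14 FPKM in shPCAT1 samples, against 7.39, 8.09 and 35.9 FPKM in shSCR samples. In all 3 the highest value was that of shSCR replicate 3, and the log2 changes of -0.03, -0.40 and -0.52 became 0.25, 0.12 and 0.18 without it. MVD then lay above shSCR in every shPCAT1 sample.

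IDI1, the isomerase that interconverts the isoprenoid units, had 52.3, 50.8 and 49.5 FPKM in shPCAT1 samples, against 38.8, 42.7 and 25.3 FPKM in shSCR samples. The groups did not overlap and shSCR replicate 3 was the lowest of all. The log2 change was 0.54 ± 0.22 (adjusted p = 0.289), and 0.32 ± 0.07 (adjusted p = 0.0760) without that library. FDPS, which joins the units to farnesyl diphosphate, had 77.1 to 79.5 FPKM in shPCAT1 samples, against 73.2, 78.7 and 133.1 FPKM in shSCR samples, and the groups overlapped (log2 change -0.23, and 0.041 without shSCR replicate 3). IDI1 has 3 and FDPS has 8 annotated pseudogenes by name, so reads may have been divided among copies; the same holds for CYP51A1 with 3, HSD17B7 with 2, and AACS and SCD with 1 each.

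FDFT1, the squalene synthase that commits the pathway to sterols, had 84.5, 65.3 and 88.2 FPKM in shPCAT1 samples, against 59.7, 93.2 and 61.3 FPKM in shSCR samples. Its ranges overlapped, with a log2 change of 0.17 (95% interval -0.39 to 0.73), and 0.075 without shSCR replicate 3. SQLE, the epoxidase that oxidises squalene and is a rate-limiting step, had 36.6, 47.7 and 23.5 FPKM in shPCAT1 samples, against 15.7, 23.1 and 17.7 FPKM in shSCR samples. The lowest shPCAT1 sample of SQLE was barely above the highest shSCR sample. Its mean was 1.91-fold that of shSCR (log2 change 0.86 ± 0.29, adjusted p = 0.238), and little of this changed without shSCR replicate 3 (0.83 ± 0.35, adjusted p = 0.225). LSS, which closes the ring to lanosterol, had 9.31, 9.47 and 8.35 FPKM in shPCAT1 samples, against 9.10, 8.66 and 16.5 FPKM in shSCR samples, overlapping in range (log2 change -0.25, and 0.022 without shSCR replicate 3).

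CYP51A1, the lanosterol demethylase, had 41.0, 71.4 and 70.8 FPKM in shPCAT1 samples, against 28.2, 57.1 and 54.2 FPKM in shSCR samples, and the groups overlapped. TM7SF2, a sterol reductase of the following step, was the only gene of the trimming steps with all shPCAT1 samples below all shSCR samples. It had 13.7, 19.3 and 19.6 FPKM in shPCAT1 samples, against 25.9, 28.5 and 23.4 FPKM in shSCR samples (log2 change -0.55, 95% interval -1.02 to -0.09, adjusted p = 0.242). Its value in shSCR replicate 3 was the lowest of the shSCR samples.

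MSMO1, NSDHL and HSD17B7 act together to remove methyl groups from the sterol ring. NSDHL had 14.4, 14.0 and 14.1 FPKM in shPCAT1 samples, against 12.9, 11.3 and 10.3 FPKM in shSCR samples, a small separation (log2 change 0.29 ± 0.15, adjusted p = 0.376). MSMO1 had 23.1 to 24.5 FPKM in shPCAT1 samples, inside the shSCR range of 14.5 to 29.9 FPKM. HSD17B7 had 9.20 to 10.2 FPKM in shPCAT1 samples, inside the shSCR range of 8.40 to 14.3 FPKM. The shPCAT1 samples of MSMO1 and HSD17B7 thus fell within the spread of shSCR. Their log2 changes were 0.29 and -0.17, and 0.18 and 0.0084 without shSCR replicate 3.

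EBP, the isomerase that moves the double bond of the ring, had 34.0, 31.7 and 32.0 FPKM in shPCAT1 samples, against 27.4, 28.7 and 9.53 FPKM in shSCR samples. Much of its log2 change of 0.70 (adjusted p = 0.429) came with shSCR replicate 3, the lowest sample, and it was 0.21 (adjusted p = 0.151) without it. SC5D, the desaturase that follows, had 23.3, 22.9 and 22.5 FPKM in shPCAT1 samples, against 14.3, 14.2 and 9.14 FPKM in shSCR samples. Every shPCAT1 sample of SC5D was far above every shSCR sample. Its mean was 1.83-fold that of shSCR (log2 change 0.85, 95% interval 0.35 to 1.34, adjusted p = 0.139); without shSCR replicate 3 it rose 1.61-fold (log2 change 0.65 ± 0.06, adjusted p = 0.0181), the only sterol gene called higher in that fit. DHCR7, which makes cholesterol in the last step, had 22.4 to 24.6 FPKM in shPCAT1 samples, against 27.9, 23.7 and 41.8 FPKM in shSCR samples, with overlap (log2 change -0.35, and -0.12 without shSCR replicate 3).

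Of the 5 genes of control, SREBF1 (highest transcript at chr17:17715387-17740316, minus strand, hg19) differed most. It had 51.3, 60.3 and 58.5 FPKM in shPCAT1 samples, against 101.8, 104.4 and 181.3 FPKM in shSCR samples. The highest shPCAT1 sample was far below the lowest shSCR sample. The log2 change was -1.12 (95% interval -1.74 to -0.50, adjusted p = 0.126). Without shSCR replicate 3 SREBF1 fell to 0.550-fold of shSCR (log2 change -0.85 ± 0.09, adjusted p = 0.0208).

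SREBF2, its partner for sterol genes, had 60.6, 63.3 and 69.1 FPKM in shPCAT1 samples, against 65.9, 66.7 and 122.0 FPKM in shSCR samples. Its ranges overlapped, and the log2 change of -0.34 became -0.05 ± 0.08 (adjusted p = 0.749) without shSCR replicate 3. SREBF2 had the higher FPKM of the pair in every shPCAT1 sample, and SREBF1 in every shSCR sample.

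SCAP, which escorts the SREBPs to the Golgi, had 15.0, 13.7 and 15.6 FPKM in shPCAT1 samples, against 19.1, 21.4 and 34.2 FPKM in shSCR samples, with no overlap (log2 change -0.68 ± 0.24, adjusted p = 0.246, and -0.43 ± 0.10, adjusted p = 0.0693, without shSCR replicate 3). INSIG1, which holds SCAP in the endoplasmic reticulum and is itself an SREBP target, had 47.4, 50.1 and 48.8 FPKM in shPCAT1 samples, against 45.0, 23.0 and 53.7 FPKM in shSCR samples. INSIG1 overlapped between the groups only through shSCR replicate 3, and its log2 change was 0.34 with it and 0.58 (adjusted p = 0.288) without it. STARD4, a carrier that moves cholesterol between membranes, was the lowest of the 35, at 2.93 to 3.24 FPKM in shPCAT1 samples and 2.54 to 4.31 FPKM in shSCR samples (log2 change -0.11, and -0.27 without shSCR replicate 3). The groups of STARD4 overlapped only through shSCR replicate 3, at 2.54 FPKM.

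In the fatty acid arm, ACLY, which splits citrate to supply acetyl-CoA in the cytosol, was close to level. It had 94.2, 93.8 and 95.5 FPKM in shPCAT1 samples, against 97.7, 100.9 and 106.5 FPKM in shSCR samples (log2 change -0.10, 95% interval -0.39 to 0.19). ACSS2, which makes acetyl-CoA from acetate, had 10.3, 7.40 and 10.3 FPKM in shPCAT1 samples, against 11.5, 12.7 and 23.1 FPKM in shSCR samples (log2 change -0.65 ± 0.30, adjusted p = 0.327, and -0.36, adjusted p = 0.263, without shSCR replicate 3). All shPCAT1 samples of both genes were below all shSCR samples, by a narrow gap.

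ACACA encodes acetyl-CoA carboxylase, the committing enzyme of fatty acid synthesis. It had 26.1, 37.5 and 41.8 FPKM in shPCAT1 samples, against 55.7, 59.2 and 50.7 FPKM in shSCR samples. The groups did not overlap, and unlike most members it varied more in shPCAT1 than in shSCR. Its log2 change was -0.66 ± 0.21 (adjusted p = 0.207), and -0.72 ± 0.22 (adjusted p = 0.127) without shSCR replicate 3.

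FASN (single listed transcript at chr17:80036214-80056208, minus strand, hg19), the multienzyme that chains acetyl and malonyl units into palmitate, showed the largest decrease of the members with all samples. It had 89.4, 93.3 and 102.9 FPKM in shPCAT1 samples, against 168.9, 167.7 and 342.2 FPKM in shSCR samples. The shSCR replicates 1 and 2 were nearly equal, replicate 3 was far above them, and all 3 were above every shPCAT1 sample. The log2 change was -1.16 (95% interval -1.89 to -0.42, adjusted p = 0.156). Without shSCR replicate 3 FASN fell to 0.566-fold of shSCR (log2 change -0.82 ± 0.08, adjusted p = 0.0181).

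The means of the desaturases were lower in shPCAT1, by differing margins. SCD, which makes oleate and palmitoleate, had 169.3, 167.1 and 169.4 FPKM in shPCAT1 samples, against 174.2, 310.9 and 205.0 FPKM in shSCR samples, so shSCR replicate 1 was only just above the shPCAT1 samples (log2 change -0.40 ± 0.23, adjusted p = 0.408). FADS2, which takes the first desaturation step of polyunsaturated fatty acids, had 193.0, 203.9 and 203.8 FPKM in shPCAT1 samples, against 232.6, 259.3 and 277.0 FPKM in shSCR samples (log2 change -0.35, 95% interval -0.65 to -0.06, adjusted p = 0.239). FADS1, which takes a later step of the same route, had 24.5, 24.3 and 18.6 FPKM in shPCAT1 samples, against 25.3, 63.1 and 22.5 FPKM in shSCR samples. FADS1 overlapped between the groups only through shSCR replicate 3. Its log2 change was -0.55 ± 0.41 (adjusted p = 0.502), and -0.82 ± 0.42 (adjusted p = 0.295) without that library. None of the 3 was called in either fit. FADS1 and FADS2 overlap in the annotation on opposite strands, and per the study's methods a stranded kit was used. ACAT2 overlaps 2 protein-coding genes on the other strand. On the same strand, which such a kit does not separate, CYP51A1 overlaps 2 protein-coding genes and EBP 1. The part of these overlaps in the values was not tested.

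The elongases, which lengthen fatty acids by carbon pairs, had log2 changes between 0.10 and 0.30 with all samples, and these moved when shSCR replicate 3 was left out, to 0.14 for ELOVL1, 0.061 for ELOVL6, -0.15 for ELOVL5 and -0.27 for ELOVL7. None was called in either fit. ELOVL1 had 42.7, 43.3 and 40.7 FPKM in shPCAT1 samples, against 37.72, 39.01 and 30.2 FPKM in shSCR samples, the only fatty acid gene with all shPCAT1 samples above all shSCR samples (log2 change 0.25 ± 0.15, adjusted p = 0.446). ELOVL5 had 126.9 to 129.2 FPKM in shPCAT1 samples, against 148.1, 135.7 and 56.1 FPKM in shSCR samples. ELOVL6 had 4.82 to 6.73 FPKM in shPCAT1 samples and 3.62 to 5.87 FPKM in shSCR samples, and ELOVL7 had 19.4 to 19.7 FPKM in shPCAT1 samples and 10.6 to 35.5 FPKM in shSCR samples. ELOVL6 and ELOVL7 overlapped between the groups; ELOVL5 did so only through shSCR replicate 3, without which it was lower in shPCAT1 (log2 change -0.15, adjusted p = 0.228).

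The sums of the 2 arms were set side by side, since FPKM are per length. The 19 sterol genes summed to 601.0, 591.7 and 616.8 FPKM in shPCAT1 samples, against 469.6, 566.4 and 691.7 FPKM in shSCR samples, so the groups overlapped. The 11 fatty acid genes summed to 804.4, 823.2 and 836.3 FPKM in shPCAT1 samples, against 973.0, 1190 and 1128 FPKM in shSCR samples, with every shPCAT1 sample lower. The ratio of the sterol to the fatty acid sum was 0.747, 0.719 and 0.738 in shPCAT1 samples, against 0.483, 0.476 and 0.613 in shSCR samples. The ratio was thus higher in all 3 shPCAT1 samples, by 0.210 on average and by 0.255 without shSCR replicate 3; as the members were chosen with results known, it is a description with no test. FASN weighs on it: with FASN left out of the sum, an alternative added after seeing the data, the ratio was 0.841, 0.811 and 0.841 in shPCAT1 samples and 0.584, 0.554 and 0.881 in shSCR samples, and shSCR replicate 3 was the highest of the 6.

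**Figure D3:**
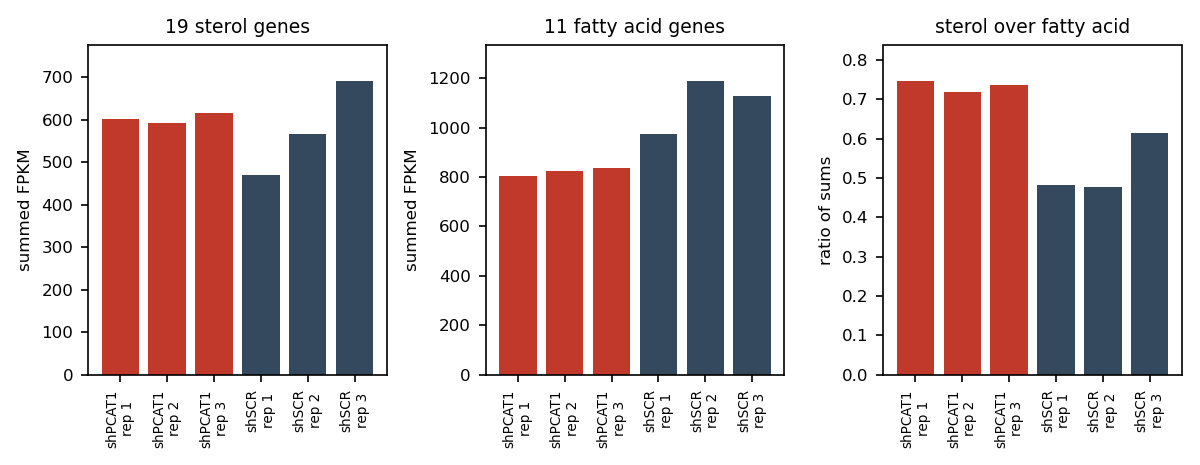
Summed FPKM of the 19 sterol genes, of the 11 fatty acid genes, and the ratio of the sums, with 1 bar per sample (red, shPCAT1; blue, shSCR). The sterol sum overlaps between the groups, the fatty acid sum is lower in every shPCAT1 sample (804.4 to 836.3 FPKM) and the ratio is higher in every shPCAT1 sample (0.719 to 0.747).

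GC content moved with these differences. Across all genes with a known GC content (10748 of those tested), the log2 change was related to GC content with rho -0.532 with all samples and -0.251 without shSCR replicate 3. Several members that were higher in shPCAT1 are AT-rich: the leading transcript had a GC content of 36.9% for SC5D, 37.9% for IDI1 and 39.0% for HMGCS1. SREBF1 (63.2%), TM7SF2 (63.0%), SCAP (61.7%) and FASN (65.3%), with log2 changes below 0, lie at the other end, with MVD (65.5%). Other members did not follow this order, beside a median of 48.55% over all genes tested. SQLE (46.5%), NSDHL (49.7%), EBP (54.0%) and ELOVL1 (55.2%) were higher without overlap. ACAT2 (45.5%), SCD (46.5%) and ACACA (47.8%) were lower without overlap. The AT-rich STARD4 (34.4%), ELOVL7 (37.0%) and MSMO1 (37.4%) overlapped, STARD4 only through shSCR replicate 3.

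After a correction for GC content in each sample, SREBF1 (log2 change -0.68, adjusted p = 0.0499) and FASN (-0.66, adjusted p = 0.0441) were called lower, with 0.521% of all genes called higher and 0.772% lower. HMGCS1 (0.98, adjusted p = 0.136) and SC5D (0.48, adjusted p = 0.0799) were not called. With the correction and without shSCR replicate 3, SC5D rose (0.48, adjusted p = 0.0284) while SREBF1 (-0.71, adjusted p = 0.0248) and FASN (-0.68, adjusted p = 0.0194) fell, where 3% of all genes were called higher and 3.13% lower; AACS (-0.33, adjusted p = 0.0826) was not called. The median log2 change in that fit was 0.17 over the sterol genes, -0.29 over the regulators and -0.27 over the fatty acid genes. Other members moved by over 1.5 times with the correction and were not called. With all samples the log2 change became -0.11 for TM7SF2, -0.27 for SCAP, 0.22 for IDI1, -0.02 for MVD and -0.01 for SREBF2, each nearer to 0 than before, while STARD4 (-0.58) and ELOVL1 (0.49) moved away from 0. With shSCR replicate 3 left out as well, it was -0.48 for TM7SF2, -0.29 for SCAP and 0.17 for IDI1. FADS2, at -0.35 before the correction, was at -0.01 after it with all samples and at -0.16 (adjusted p = 0.225) with shSCR replicate 3 left out as well.

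**Figure D4:**
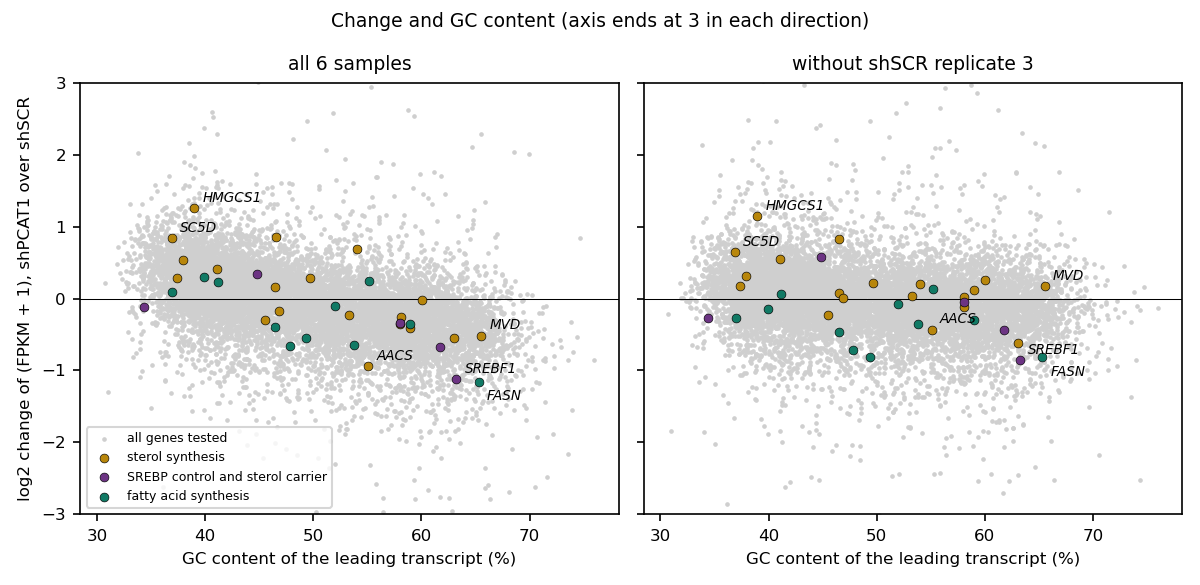
Log2 change of (FPKM + 1), shPCAT1 over shSCR, against the GC content of the leading transcript in percent, for all genes tested (grey) and the members by list (colours), with all 6 samples on the left and without shSCR replicate 3 on the right. The grey cloud slopes down on the left (rho -0.532) and less on the right (-0.251); SREBF1 and FASN lie in its lower part at high GC content in both panels and MVD moves above 0 on the right; points beyond the axis are not shown.

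The same test on 20474 transcripts called 20 (0.0977%), and 0 of the member transcripts among them. At this level the FPKM of a gene is divided among its listed transcripts, and for several members that division differed between samples of 1 group. SREBF1-002, the leading transcript of SREBF1 in 5 samples, had 32.2, 36.1 and 33.3 FPKM in shPCAT1 samples, against 63.0, 67.8 and 11.9 FPKM in shSCR samples. SREBF1-003 had 4.95, 7.88 and 12.2 FPKM in shPCAT1 samples, against 18.7, 5.15 and 149.8 FPKM in shSCR samples. In shSCR replicate 3 the reads of SREBF1 were therefore given mostly to another transcript than in the other libraries, while the gene sum was the highest there.

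ACACA showed the same kind of exchange within both groups. ACACA-002 had 24.2, 35.7 and 2.03 FPKM in shPCAT1 samples, against 35.9, 48.7 and 0 FPKM in shSCR samples. ACACA-009 took most of the gene in shPCAT1 replicate 3 (35.9 FPKM) and ACACA-003 in shSCR replicate 3 (34.2 FPKM). The gene sum of ACACA was lower in every shPCAT1 sample although none of its leading transcripts separated the groups.

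Other members had a transcript that separated the groups without being called. HMGCS1-003 had 25.7, 19.96 and 24.4 FPKM in shPCAT1 samples, against 6.55, 9.34 and 7.30 FPKM in shSCR samples (log2 change 1.49, adjusted p = 0.154), and HMGCS1-001 was higher in every shPCAT1 sample too. MVK-003 made up 46.8% of MVK in shPCAT1 and 3.27% in shSCR (log2 change 1.99, adjusted p = 0.218), while MVK-001 made up 29.3% in shPCAT1 and 70.8% in shSCR; the gene sum of MVK overlapped. FADS2-003 held 72.5% of FADS2 in shPCAT1 and 93.1% in shSCR, with 102.8, 146.7 and 186.2 FPKM in shPCAT1 samples, against 218.0, 242.8 and 254.7 FPKM in shSCR samples. FDFT1-001 held 22.7% of FDFT1 in shPCAT1 and 43.4% in shSCR.

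**Figure D5:**
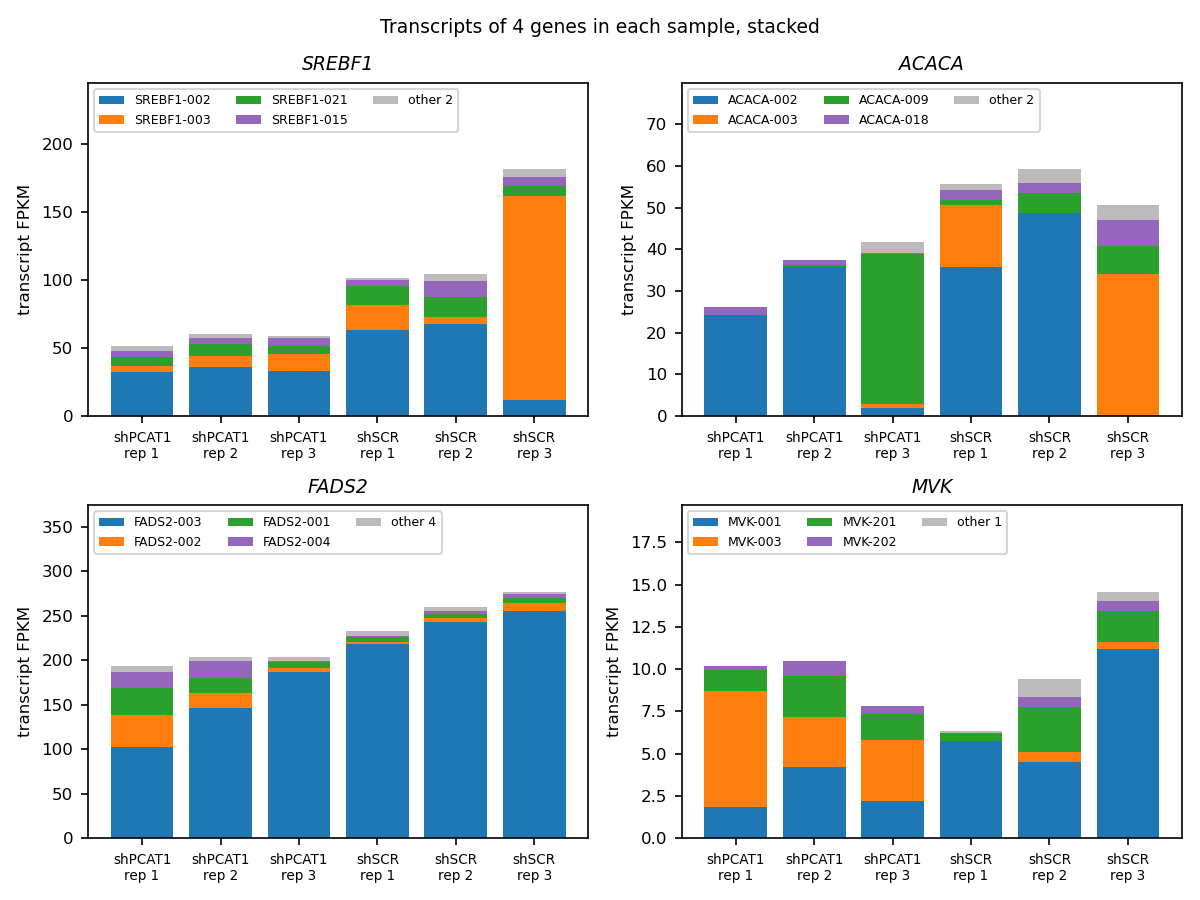
FPKM of the listed transcripts of SREBF1, ACACA, FADS2 and MVK in each sample, stacked so that the height of a bar is the gene FPKM. SREBF1-003 fills most of the bar of shSCR replicate 3 (149.8 FPKM), ACACA changes its leading transcript in the replicates numbered 3 of both groups, and MVK-003 is a large share of MVK in the shPCAT1 bars only.

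Genes around the 2 arms were read from lists of the same pathways. Of 12 other enzymes of sterol and isoprenoid synthesis tested, 0 were called in either direction by limma; the smallest p-value was that of COQ2, which attaches the side chain in coenzyme Q synthesis (23.6 ± 1.5 FPKM in shPCAT1 and 13.3 ± 0.7 FPKM in shSCR, SD, n = 3 each; log2 change 0.78, adjusted p = 0.0762). COQ2 was called higher without shSCR replicate 3 (0.77, adjusted p = 0.0231) and with GC correction (0.81, adjusted p = 0.0355), as 1 of the 12 in each, against the 3.65% and 0.521% of all genes given above. By unadjusted p (at most 0.05), 1 of the 12 was higher and 1 lower, beside 7.23% and 10% of all genes. Of 6 genes of SREBP processing, 0 were called and 0 had such a p, the smallest being that of INSIG2, which like INSIG1 retains SCAP (log2 change 0.42, adjusted p = 0.357, and 0.25 without shSCR replicate 3). Of 12 genes of sterol uptake, traffic, storage and export, 0 were called and 2 were lower by unadjusted p (at most 0.05), SOAT1, which esterifies cholesterol (-0.56, adjusted p = 0.221), and ABCG1, a cholesterol exporter (-0.50, adjusted p = 0.266), beside the same 10% of all genes. In the fit that left out shSCR replicate 3, 1 of the 12 was called higher and 1 lower, beside 3.65% and 4.29% of all genes. The one called lower was SOAT1 (-0.72, adjusted p = 0.0229). SOAT1 was also called lower with GC correction (-0.82, adjusted p = 0.0375), as 1 of the 12, where 0.772% of all genes were.

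Among 19 other genes of fatty acid and glycerolipid synthesis, 0 were called higher and 1 lower, beside 0.333% and 0.545% of all genes. This was SCD5, another stearoyl-CoA desaturase, which had 4.45, 4.50 and 4.76 FPKM in shPCAT1 samples, against 13.3, 11.9 and 15.6 FPKM in shSCR samples. SCD5 fell by 1.38 on the log2 scale (95% interval -1.77 to -0.997, adjusted p = 0.0317), with no overlap between the groups, whereas SCD itself was not called. Of the 19, 3 were called lower without shSCR replicate 3, where 4.29% of all genes were: SCD5 (-1.29, adjusted p = 0.0122), ELOVL4, an elongase of very long chains (-1.40, adjusted p = 0.0181), and ACSL1, which activates fatty acids with CoA (-0.54, adjusted p = 0.0284). With GC correction SCD5 (-1.34, adjusted p = 0.0199) and ELOVL4 (-1.49, adjusted p = 0.0247) were called lower, beside 0.772% of all genes. ELOVL4 had 0.262, 0.348 and 0.336 FPKM in shPCAT1 samples, against 2.50, 2.45 and 1.31 FPKM in shSCR samples, so it was low in both groups. It passed the filter at a mean of 1 FPKM only through its shSCR samples. Its calls therefore depend on that filter and add no separate evidence to the counts above. The median log2 change of the list was -0.46, with 15 of 19 below 0, against 54.2% of all genes below 0. By unadjusted p (at most 0.05) 1 was higher and 6 lower, beside 7.23% and 10% of all genes. The 1 higher was ACSL4, with a mean of 2.27 FPKM in shPCAT1 and 0.791 FPKM in shSCR. It passed the filter only through its shPCAT1 samples, and the 6 lower include ELOVL4. Neither ACSL4 nor ELOVL4 adds evidence to these counts. Of 16 genes of fatty acid oxidation, 0 were called and 14 were below 0, with a median of -0.47 and 6 lower by unadjusted p (at most 0.05), a measure by which 10% of all genes were lower. ACADS, the short-chain acyl-CoA dehydrogenase, had 9.31, 8.78 and 9.37 FPKM in shPCAT1 samples, against 19.02, 18.6 and 24.1 FPKM in shSCR samples (log2 change -1.08, adjusted p = 0.0501), and CPT2, which hands acyl groups to the mitochondrial matrix, had a log2 change of -0.65 (adjusted p = 0.0992). Without shSCR replicate 3, ACADS, CPT2 and HADHA, a subunit of the trifunctional protein, were called lower (adjusted p = 0.0130, 0.0253 and 0.0177), 3 of the 16, where 4.29% of all genes were. With GC correction and all samples 0 of the 16 were called. With the correction and without shSCR replicate 3, 3 of the 16 were called lower, where 3.13% of all genes were. These were ACADS (-0.82, adjusted p = 0.01675), CPT2 (-0.61, adjusted p = 0.0315) and HADHA (-0.56, adjusted p = 0.0215). The medians without shSCR replicate 3 were -0.33 for the synthesis list and -0.39 for the oxidation list, beside -0.01 over all genes tested.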

How the data were processed

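RNA-seq of LNCaP-AI cells was done with a stranded poly(A) kit and single-end reads in 3 shPCAT1 and 3 shSCR samples. The deposited FPKM values per transcript were computed by the authors with Ballgown, on hg19. The submitters' processing notes name HISAT2 2.0.4, whereas the study's methods name TopHat with Ensembl models; which of them made the table was not settled here. The authors also deposited their own comparison, group means and differences on the log2 scale, a fold ratio, p-values and q-values, none of which was used. There were 0 columns of other samples. Low FPKM values showed no whole-read steps, so library depth could not be had and counting error is not covered; listed FPKM added up to between 263353 and 303477 in a sample, which is no depth.

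FPKM of listed transcripts were summed by gene name. Features averaging 1 FPKM or more across the 6 samples were put on the scale log2(FPKM + 1), which understates the change of low genes, and fitted in R 4.3.3 by limma 3.58.1 (two-sided, no covariate; moderated variance with a trend, robust), with Benjamini-Hochberg adjustment over all features and calls at an adjusted p of at most 0.05. An SE or interval (95%) is that of the fit. For the GC correction, a loess (span 0.3) of the deviation of each sample from the gene mean on GC content was subtracted; GC content was that of the highest transcript of a gene and was known for 99.3% of the genes and all 35 members. Promoters were searched for motifs with Python 3.11.15. The fits were tested on simulated data.

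The members, the lists of other genes and the tests were chosen with earlier results of these data known. All members are reported; of the other lists, called genes are named and otherwise those with the smallest p-values; some genes of these lists are not reported here. Alternatives tried were GC correction, a replicate block, upper quartile scaling, quantile normalization, a pseudocount of 0.1, a mean filter of 5 FPKM or none, limma without trend or robust fit, and each sample left out.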

Additional observations from a re-analysis of the deposited data

How the results depend on the processing

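With 3 samples per group, 1 of them apart from the rest in shSCR, the spread between samples limits the comparisons. The number of genes called was 95 with all samples, 56 with a pseudocount of 0.1, 53 with a filter at 5 FPKM, 653 with GC correction and shSCR replicate 3 left out, and 4 to 851 with each sample left out, the highest without shSCR replicate 3. The samples share only a replicate number: deviations of same-numbered samples correlated at -0.02, -0.01 and 0.02, and a replicate block called 2 genes, 0 of them members, with or without GC correction, and 0 transcripts. Transcripts called were 20 with all samples and 1 to 93 with each sample left out. Members called were 0 with all samples, 2 with GC correction (SREBF1, FASN), 3 with GC correction and shSCR replicate 3 left out (SC5D, SREBF1, FASN) and 0 to 4 with each sample left out, the 4 without shSCR replicate 3.

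The median log2 change of the sterol genes was 0.17 with GC correction and shSCR replicate 3 left out and -0.17 to 0.18 with each sample left out; that of the fatty acid genes was -0.26 after upper quartile scaling and -0.42 to -0.11 with each sample left out, the smallest without shSCR replicate 2. The median of all genes was 0.03 after upper quartile scaling, against -0.05 as deposited. The mean difference of the ratio of sums was 0.16 to 0.26 over its alternatives.

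Over the 35 members and all alternatives, 514 log2 changes kept their direction and side of the threshold, 9 passed it and 36 changed direction; none of those 36 was called in any fit. MVK turned to 0.063 with upper quartile scaling, 0.054 with quantile normalization, 0.34 with GC correction (with or without the replicate block) and 0.39 with GC correction and shSCR replicate 3 left out. ACLY turned to 0.030 with quantile normalization and 0.051 with GC correction. GC correction, with or without the block, also turned LSS (0.069), MSMO1 (-0.053) and ELOVL7 (-0.26). With GC correction and shSCR replicate 3 left out, LSS (0.15), PMVK (0.26), MVD (0.32), FDPS (0.12), HSD17B7 (0.0048), DHCR7 (0.0072), SREBF2 (0.083), ELOVL5 (-0.25), ELOVL6 (-0.027) and ELOVL7 (-0.44) changed direction. With each sample left out, the ranges were -0.83 to 0.12 for PMVK, -0.29 to 0.25 for MVK, -0.012 to 0.58 for INSIG1, -0.27 to 0.020 for STARD4, -0.89 to 0.18 for MVD, -0.39 to 0.041 for FDPS, -0.41 to 0.022 for LSS, -0.34 to 0.0084 for HSD17B7, -0.15 to 0.55 for ELOVL5 and -0.27 to 0.56 for ELOVL7. The cause of these changes was not tested.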
